A study of Mus musculus with 32 samples.

Results

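The genes described here are 10 genes that lie on the same chromosome as one of the alleles deleted in these mice, Dapk2, Pclaf, Mns1, Lrrc1, Ube2cbp, Me1, Nt5e, Tmem25 and Jaml on chromosome 9 and Mnd1 on chromosome 3. They were chosen by their differences between knockout and control arrays in these same data and by their place in the gene order near Pygo1, Pygo2, Bcl9 or Bcl9l, out of 11484 named genes on the array. Values of the knockout comparisons are therefore given as a description, without a test. All 16 probes that carry the names of the 10 genes were followed.

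The series holds 32 Illumina bead arrays for mouse RNA, 20 of adenomas and 12 of crypts, from mice of C57BL/6J background aged 120 days. The adenomas, excised from the intestine, all carried ApcMin/+, a truncating mutation of the Wnt antagonist Apc. There were 3 arrays of QKO adenomas (all alleles of both double knockouts), 3 of Bcl9/B9l DKO adenomas (villin.Cre/+ with Bcl9 LoxP/LoxP and B9l LoxP/LoxP), 5 of Pygo1/2 DKO adenomas (villin.Cre/+ with Pygo1-/- and Pygo2 LoxP/LoxP) and 9 of ApcMin adenomas without these alleles and without the Cre. Crypts were isolated with EDTA from mice without ApcMin and gave 3 arrays each of Bcl9/B9l DKO, Pygo1/2 DKO, wt villin.Cre/+ and wt. B9l is Bcl9l. The villin.Cre transgene deletes the floxed genes in intestinal epithelium only, whereas the Pygo1 allele is null in every cell. The knockout strains had been back-crossed into C57BL/6 for 4 generations per the study's methods, and ApcMin adenomas differ from the knockout adenomas in the Cre as well as in the deleted genes. A sample typically pooled several RNA extractions of the same mouse, and no label states that each array of a group is a different mouse. The calls thus rest on the spread between these arrays, which may be partly technical.

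A targeted allele that is back-crossed into another strain keeps a stretch of the donor chromosome on both sides, which recombination shortens in each generation. Genes on such a stretch can differ between donor and recipient strain in their regulatory sequence, in their copy number or in the bases under a short array probe. They are known as passenger or flanking genes, and they move with the targeted allele in every tissue in which they are expressed. Pygo1, Pygo2, Bcl9 and Bcl9l encode co-factors that join β-catenin to TCF factors at Wnt target genes, so a Wnt target could also move with the same alleles. Which chromosome segments of the donor strain these mice kept was not tested.

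In the gene order of the RefSeq annotation of GRCm38.p6, counted in protein-coding genes, Bcl9l lies 303 positions before Pygo1 on chromosome 9, and Pygo2 and Bcl9 lie 204 positions apart on chromosome 3. Counted from Pygo1, with negative numbers before it, Mns1 stands at -5, Dapk2 at -43, Pclaf at -49 and Lrrc1 at 32. Tmem25 and Jaml stand 7 and 17 positions after Bcl9l. Ube2cbp, Me1 and Nt5e stand 74, 78 and 86 positions after Pygo1, which places them 377 to 389 positions from Bcl9l. Mnd1 stands at -101 from Pygo2 and at -305 from Bcl9. Thus 6 of the 10 genes lie within 50 positions of a targeted gene, and the name flanking genes fits Ube2cbp, Me1, Nt5e and Mnd1 only in the wide sense of a shared chromosome.

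Promoter sequences are shown for 4 of the genes with called decreases in double knockout adenomas, 2 on the Pygo1 side and 2 of the genes below detection in Bcl9/B9l DKO tissue, since a Wnt target would be looked for by its TCF sites. Each is the 250 bases before the transcript start on the strand of the gene, from RefSeq (GRCm38.p6), in lower case with the core CTTTG or CAAAG of a TCF site in capitals. Dapk2 lies at chr9:66157976-66158225 on the + strand, Mns1 at chr9:72438279-72438528 on the + strand, Tmem25 at chr9:44799248-44799497 on the - strand, and the Me1 start shown, 1 of 2 annotated, at chr9:86695915-86696164 on the - strand.
Dapk2: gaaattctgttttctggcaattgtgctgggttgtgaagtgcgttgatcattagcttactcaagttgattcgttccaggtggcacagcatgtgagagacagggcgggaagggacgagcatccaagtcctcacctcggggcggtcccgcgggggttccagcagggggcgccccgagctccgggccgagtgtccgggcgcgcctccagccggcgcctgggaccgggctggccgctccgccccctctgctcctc
Mns1: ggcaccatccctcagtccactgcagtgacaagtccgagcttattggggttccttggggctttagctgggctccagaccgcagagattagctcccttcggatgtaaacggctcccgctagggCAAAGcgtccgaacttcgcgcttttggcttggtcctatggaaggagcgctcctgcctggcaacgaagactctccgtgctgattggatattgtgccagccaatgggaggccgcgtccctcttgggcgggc
Tmem25: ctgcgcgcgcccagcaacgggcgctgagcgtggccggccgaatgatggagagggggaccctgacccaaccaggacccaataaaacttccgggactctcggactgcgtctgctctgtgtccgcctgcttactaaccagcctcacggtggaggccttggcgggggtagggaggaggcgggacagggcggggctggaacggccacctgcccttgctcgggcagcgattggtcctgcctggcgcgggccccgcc
Me1: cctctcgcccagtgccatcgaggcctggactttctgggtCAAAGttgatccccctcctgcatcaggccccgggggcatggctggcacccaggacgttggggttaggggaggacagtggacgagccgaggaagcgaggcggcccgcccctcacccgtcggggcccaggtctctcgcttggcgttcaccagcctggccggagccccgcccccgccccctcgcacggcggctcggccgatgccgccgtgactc
The longer TCF motif CTTTGAT, or ATCAAAG on the other strand, stood in 0 of the 12 promoter windows of the 10 genes and in 3.21% of 32851 windows of the same length over the genome. The core alone, which overlaps the longer motif, stood in 2 of the 12 windows, those printed for Mns1 and Me1, and in 48.6% of all windows. A match of letters is no binding site, and the absence of a match covers only these windows.

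Per-array levels below are log2 normalized bead signals from all 32 arrays normalized together, and a signal counts as detected where the scanner's detection p-value is under 0.01. Differences are log2 differences ± SE from limma fits of each comparison on its own arrays, with a batch term where both batches were present, and a probe is called where its Benjamini-Hochberg adjusted p over all probes of the comparison is under 0.01 (under 0.05 in crypts). A gene with several probes was counted by the brightest in that comparison. The 26 arrays of batch 1 had mean signals of 307 to 445 and 12913 to 16319 detected probes, and the 6 arrays of batch 2, all 3 QKO arrays and ApcMin replicates 4, 6 and 8, had mean signals of 156 to 217 and 14081 to 14666 detected probes. Arrays of a group correlated at 0.951 to 0.9938, and 0 pairs had identical intensities. Of the targeted genes, Pygo2 was lower by -1.14 ± 0.15 in Pygo1/2 DKO adenomas and by -1.62 ± 0.20 in Pygo1/2 DKO crypts, both called, and by -0.36 ± 0.19 in QKO adenomas, where all 3 arrays were lower but the probe was not called. Pygo1 was detected in 0 of 20 adenoma arrays, and no probe of Bcl9 or Bcl9l was called in a knockout. Probe positions against the deleted exons were not analysed here, so the Bcl9 and Bcl9l probes do not check the labels.

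**Figure D1:**
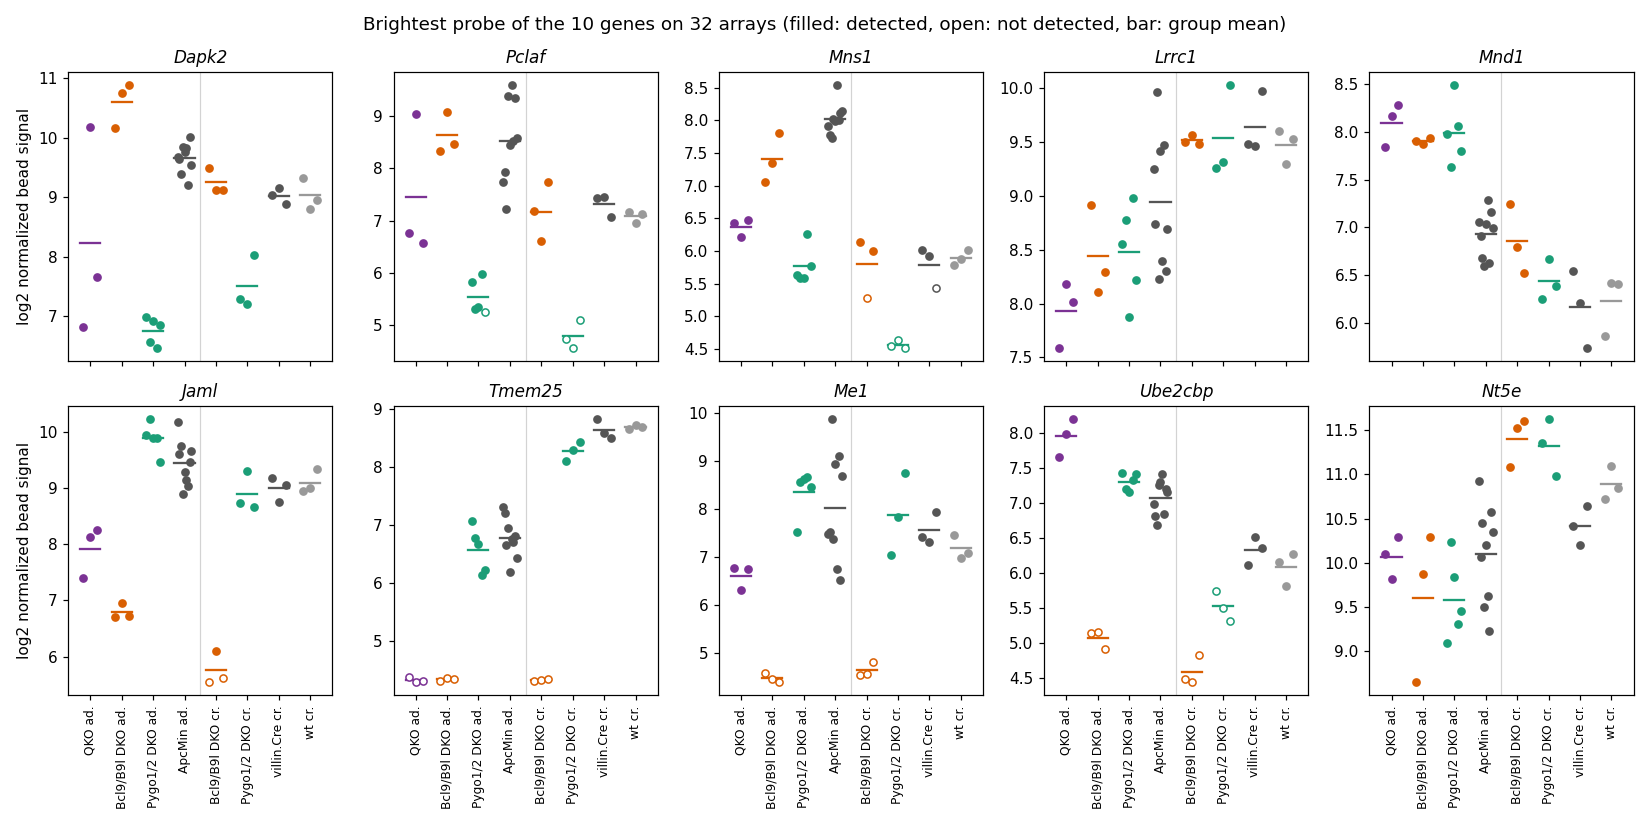
Log2 normalized bead signal (y axis) of the brightest probe of each of the 10 genes on all 32 arrays, in the 4 adenoma groups and, right of the grey line, the 4 crypt groups (x axis; ad., adenomas, cr., crypts). Filled points were detected, open points were not, and bars are group means. Dapk2, Pclaf and Mns1 were low in both Pygo1/2 DKO tissues, and Jaml, Tmem25, Me1 and Ube2cbp were low in both Bcl9/B9l DKO tissues.

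On the Pygo1 side, Dapk2, Pclaf and Mns1 were lower in Pygo1/2 DKO tissue, in adenomas and in crypts alike, and the nearest gene, Mns1, was also low on every QKO array. Pygo1/2 DKO adenomas were called in 4 of the 10 genes, Dapk2, Pclaf and Mns1 lower and Mnd1 higher, where 0.181% of all 19380 probes were called. Pygo1/2 DKO crypts were called in 2 of the 10, Dapk2 and Pclaf, both lower, where 0.267% of 15375 probes were called. The medians over the 10 genes were -0.41 in adenomas and -0.26 in crypts, beside medians of 0.0173 and -0.000824 over all probes. These contrasts chose the genes, and nothing is read from the counts.

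Dapk2 encodes a calcium- and calmodulin-dependent protein kinase linked to cell death and autophagy. Its signal was 6.98, 6.56, 6.91, 6.47 and 6.85 in Pygo1/2 DKO adenomas, against 9.21 to 10.01 with a median of 9.68 in the 9 ApcMin adenomas. In crypts it was 7.29, 7.20 and 8.03 in Pygo1/2 DKO, against 9.05, 9.16 and 8.88 in villin.Cre crypts. Neither tissue showed an overlap between knockout and control arrays, and even the highest Pygo1/2 DKO array, a crypt array, stayed below every control. The difference was -2.61 ± 0.13 in adenomas (n = 5 and 9) and -1.70 ± 0.25 in crypts (n = 3 each). The crypt call was lost without Pygo1/2 DKO replicate 1 or 2 or any 1 of the 3 villin.Cre arrays. The dimmer of the 2 Dapk2 probes was detected in 0 of 5 Pygo1/2 DKO adenomas and in all 9 ApcMin adenomas. It was at least 1.41-fold lower in Pygo1/2 DKO adenomas than in the ApcMin adenomas of batch 1.

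Dapk2 went the other way in Bcl9/B9l DKO adenomas, with 10.16, 10.76 and 10.89 in the DKO arrays, above all 9 ApcMin arrays, and a called difference of 1.03 ± 0.17. In Bcl9/B9l DKO crypts it was 9.49, 9.13 and 9.13, overlapping villin.Cre crypts, with a difference of 0.24 ± 0.18. The 3 QKO adenomas did not act as a group. Their Dapk2 signals were 6.83, 10.19 and 7.66, against 9.83, 9.84 and 10.01 in the ApcMin arrays of the same batch, so that replicates 1 and 3 lay far below the controls and replicate 2 above them. The difference of -1.57 ± 0.54 was not called with all 3 arrays, and was -2.50 ± 0.23 and called without replicate 2. Replicate 2 stands apart by these same values, so nothing is read from the call without it.

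Pclaf encodes a small PCNA-binding protein of DNA replication and repair that is found in dividing cells. In Pygo1/2 DKO adenomas it was 5.83, 5.30, 5.34, 5.98 and 5.26, the last not detected, against 7.22 to 9.59 with a median of 8.52 in ApcMin adenomas. In Pygo1/2 DKO crypts it was detected in 0 of 3 arrays, against signals of 7.42, 7.46 and 7.06 in villin.Cre crypts. Knockout and control arrays did not overlap in either tissue. The difference was -2.46 ± 0.23 in adenomas, and in crypts Pclaf was at least 2.98-fold lower. Of 14 genes of a proliferation list (cell cycle and replication genes) that are on the array, 0 were called in Pygo1/2 DKO adenomas, with a median of 0.27, and 0 in Pygo1/2 DKO crypts, with a median of -0.71. Their summed signal in Pygo1/2 DKO crypts was 2450 to 3360, against 3790 to 4570 in villin.Cre crypts. The part of proliferation in the crypt value of Pclaf was not tested, and in adenomas the sums were 9020 to 13500 in Pygo1/2 DKO and 7760 to 15000 in ApcMin. Markers of lymphocytes were measured in the same adenomas. Of 4 plasma and B cell genes on the array, 2 were called lower in Pygo1/2 DKO adenomas, with a median of -1.33 and sums of 265 to 491 against 289 to 2810 in ApcMin adenomas. Of 4 T cell genes, 0 were called, with a median of -1.21 and sums of 259 to 548 against 472 to 1650. The part of these cells in the values of Dapk2, Pclaf, Mns1 and Mnd1 was not tested.

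Bcl9/B9l DKO adenomas had Pclaf signals of 8.34, 9.08 and 8.46, within the range of ApcMin adenomas, with a difference of 0.53 ± 0.27. Among QKO adenomas, replicate 2 again stood apart, with signals of 6.76, 9.03 and 6.58 against 9.35, 9.39 and 9.59 in ApcMin arrays of that batch, so that it lay just below these controls and within the range of all 9. The difference was -1.85 ± 0.49 and not called, and -2.59 ± 0.33 and called without replicate 2. That array was again set apart by the values compared, so nothing is read from this call either. Of all probes, 2.46% of 18879 were called without replicate 2 and 4.41% of 19189 with it.

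Mns1 encodes a coiled-coil protein of motile cilia and sperm flagella, first described in meiotic cells, and is the member closest to Pygo1. Its signal in Pygo1/2 DKO adenomas was 5.62, 5.58, 5.58, 6.25 and 5.77, against 7.73 to 8.54 with a median of 8.00 in ApcMin adenomas, a difference of -2.08 ± 0.15. QKO adenomas had 6.42, 6.21 and 6.47, so here replicate 2 lay with the other QKO arrays, below all 9 ApcMin arrays, and the difference was -1.72 ± 0.16 and called. Mns1 was detected in 0 of 3 Pygo1/2 DKO crypts and in 2 of 3 villin.Cre crypts, a difference that was not called and too near the lowest detected signal for a bound on its fold. Bcl9/B9l DKO adenomas had 7.05, 7.35 and 7.80, overlapping ApcMin adenomas, with a difference of -0.49 ± 0.18.

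Lrrc1, on the far side of Pygo1, encodes a scaffold protein of the Scribble family at cell junctions and has 3 probes on the array, which did not move alike. The brightest over all arrays was lower by -0.72 ± 0.22 in Pygo1/2 DKO adenomas and was not called, with overlapping groups. The next probe was 7.88, 7.17, 7.27, 7.33 and 8.12 there, against 8.66 to 9.53 with a median of 9.23 in ApcMin adenomas, a called difference of -1.44 ± 0.17. The dimmest probe differed by -0.56 ± 0.22 and was not called. In QKO adenomas the same middle probe was called at -0.99 ± 0.19, with 7.95, 8.33 and 8.44, while the other 2 differed by -0.36 ± 0.27 and -0.48 ± 0.27. In Pygo1/2 DKO crypts the middle probe was lower on all 3 arrays, 9.00, 8.81 and 8.52 against 9.18, 9.26 and 9.21 in villin.Cre crypts, by -0.48 ± 0.17, not called. Probes of 1 gene that disagree in this way give no single level for Lrrc1.

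On the Bcl9l side, Tmem25 was below detection in Bcl9/B9l DKO adenomas and crypts and Jaml was low in both, and Me1 and Ube2cbp, which lie far from Bcl9l, were below detection in both as well. Bcl9/B9l DKO adenomas were called in 6 of the 10 genes, Tmem25, Jaml, Me1 and Ube2cbp lower and Dapk2 and Mnd1 higher, where 2.27% of 18990 probes were called. Bcl9/B9l DKO crypts were called in 3 of the 10, Tmem25, Jaml and Me1, all lower, where 0.0381% of 15750 probes were called, that is 6 probes. Counted by the brightest probe of each gene, these 3 were the only genes with a known position that were called in those crypts. All 3 lie on chromosome 9, but this contrast is among those that chose the genes, so nothing is read from that. The medians over the 10 genes were -0.56 in adenomas and -0.14 in crypts, beside 0.03 and -0.01 over all probes.

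Tmem25 encodes a transmembrane protein of the immunoglobulin superfamily. Its bright probe was detected in 0 of 3 Bcl9/B9l DKO adenomas and 0 of 3 QKO adenomas, and in all 9 ApcMin adenomas at 6.20 to 7.32 with a median of 6.76. In crypts it was detected in 0 of 3 Bcl9/B9l DKO arrays, against 8.83, 8.59 and 8.51 in villin.Cre crypts. All 9 arrays with deleted Bcl9 and B9l lay between 4.31 and 4.38, whereas Pygo1/2 DKO arrays overlapped their controls in adenomas (difference -0.17 ± 0.20) and lay slightly below them in crypts (-0.40 ± 0.17). Against controls of the same batch, Tmem25 was at least 2.57-fold lower in Bcl9/B9l DKO adenomas and at least 2.32-fold lower in QKO adenomas. In Bcl9/B9l DKO crypts it was at least 8.73-fold lower. These bounds are limited by the lowest signal the array detects and not by the loss itself. The other Tmem25 probe was detected on 1 of 32 arrays and gives no comparison.

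Jaml encodes a junctional adhesion molecule of γδ T cells and other leukocytes, whose ligand is the epithelial receptor Cxadr. Signals in Bcl9/B9l DKO adenomas were 6.70, 6.95 and 6.73, against 8.89 to 10.17 with a median of 9.47 in ApcMin adenomas, and the second probe gave 6.67, 6.98 and 6.74 against 8.56 to 9.90. In Bcl9/B9l DKO crypts the brighter probe was 5.56, 6.09 and 5.63, detected only in the middle array, against 9.18, 8.75 and 9.05 in villin.Cre crypts. No knockout array reached a control array with either probe. The differences were -2.65 ± 0.21 and -2.31 ± 0.23 in adenomas and -3.48 ± 0.21 and -2.78 ± 0.17 in crypts for the 2 probes, all called.

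QKO adenomas had Jaml at 7.39, 8.12 and 8.25, between Bcl9/B9l DKO and ApcMin adenomas, with a difference of -1.17 ± 0.27 that was not called on the brighter probe and of -1.35 ± 0.29 that was called on the other. Since Jaml marks leukocytes, T cell genes were measured beside it, and in bulk tissue fewer cells of a type and less RNA per cell cannot be told apart. Of 4 T cell genes on the array, 2 were called lower in Bcl9/B9l DKO adenomas, where the summed signal of the 4 was 308 to 434 against 472 to 1650 in ApcMin adenomas. Cd3g and Cd3e, which are among these T cell genes and were called lower there, themselves lie 12 and 14 positions from Bcl9l. Of the 4 plasma and B cell genes, 2 were called lower there as well, with sums of 281 to 544 against 289 to 2810. The part of these cells in the adenoma value of Jaml was not tested. In Bcl9/B9l DKO crypts the 4 T cell genes had a median difference of 0.38 with 0 called, beside a Jaml difference of -3.48. Their sums were 482 to 1180 there, against 371 to 708 in villin.Cre crypts.

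**Figure D2:**
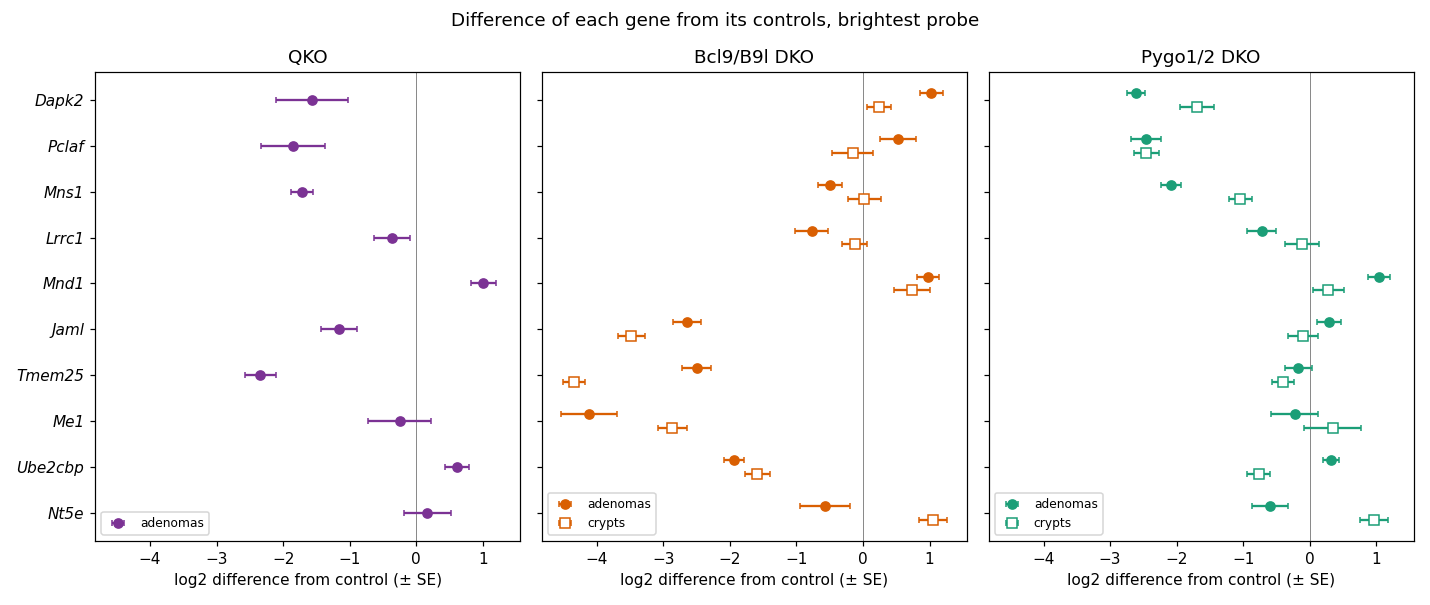
Log2 difference ± SE (x axis) of the brightest probe of each gene (rows) from its controls, ApcMin adenomas for adenomas (filled circles) and villin.Cre crypts for crypts (open squares), in QKO, Bcl9/B9l DKO and Pygo1/2 DKO. Points of probes that no knockout array detected are the fitted values and not sizes of a decrease. Among them are Me1 and Ube2cbp in Bcl9/B9l DKO adenomas, at least 8.68-fold and 2.95-fold lower than the ApcMin adenomas of batch 1. In QKO adenomas these 2 genes lie at -0.25 and 0.62.

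Me1 and Ube2cbp stand close together after Pygo1. Both were below detection in Bcl9/B9l DKO adenomas and crypts, and both were detected in QKO adenomas, which carry the same Bcl9 and B9l alleles. In Pygo1/2 DKO tissue Me1 was detected on every array, whereas Ube2cbp was detected in adenomas and on 0 of 3 crypt arrays. Me1 encodes the cytosolic NADP-dependent malic enzyme, which supplies NADPH for fatty acid synthesis. It was detected in 0 of 3 Bcl9/B9l DKO adenomas and 0 of 3 Bcl9/B9l DKO crypts, on 6 arrays between 4.41 and 4.82. ApcMin adenomas had 6.52 to 9.88 with a median of 7.52, and villin.Cre crypts 7.42, 7.32 and 7.95. No knockout array reached a control array in either tissue. Me1 was at least 8.68-fold lower in Bcl9/B9l DKO adenomas than the mean of the 6 ApcMin adenomas of the same batch, batch 1. It was at least 3.86-fold lower in Bcl9/B9l DKO crypts than in villin.Cre crypts.

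All 3 QKO adenomas expressed Me1, at 6.78, 6.31 and 6.76, against 6.52, 6.77 and 7.38 in ApcMin adenomas of the same batch, with overlapping groups and a difference of -0.25 ± 0.48. ApcMin adenomas of batch 1 had 7.49 to 9.88, all above those of batch 2. In Pygo1/2 DKO tissue Me1 overlapped its controls, with differences of -0.22 ± 0.35 in adenomas and 0.35 ± 0.43 in crypts.

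Ube2cbp, also called Ube3d, encodes a ubiquitin ligase that binds the ubiquitin-conjugating enzyme Ube2c. Bcl9/B9l DKO adenomas had 5.14, 5.16 and 4.92, none detected, against 6.69 to 7.41 with a median of 7.15 in ApcMin adenomas. They were at least 2.95-fold lower than the ApcMin adenomas of batch 1. Bcl9/B9l DKO crypts were also not detected, against 6.12, 6.52 and 6.36 in villin.Cre crypts, at least 1.52-fold lower and not called. QKO adenomas had the highest signals of all groups, 7.66, 7.99 and 8.21, above all 9 ApcMin arrays, with a difference of 0.62 ± 0.18 that was not called. Pygo1/2 DKO split by tissue. In adenomas the difference was 0.32 ± 0.12, and in crypts 0 of 3 arrays were detected, at least 1.40-fold lower than villin.Cre crypts, neither called.

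Nt5e, the last gene of this stretch, encodes CD73, a surface enzyme that makes adenosine from AMP. In crypts it was higher on all arrays of both double knockouts than on the villin.Cre arrays. Bcl9/B9l DKO crypts had 11.09, 11.53 and 11.60 and Pygo1/2 DKO crypts 11.36, 11.63 and 10.98, against 10.42, 10.20 and 10.64 in villin.Cre crypts, so that neither knockout overlapped its controls. The differences of the brighter probe were 1.06 ± 0.21 and 0.97 ± 0.21, not called, and those of the other probe 1.42 ± 0.35, not called, and 1.56 ± 0.17, called. Both contrasts share the villin.Cre arrays, which were themselves lower than the wt crypts (10.72, 11.10 and 10.85). On this brighter probe both double knockouts overlapped the wt crypts, and on the other probe only Bcl9/B9l DKO crypts did. In adenomas the 3 knockouts overlapped ApcMin adenomas, with differences of 0.17 ± 0.35 in QKO, -0.58 ± 0.38 in Bcl9/B9l DKO and -0.60 ± 0.27 in Pygo1/2 DKO.

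Mnd1, on chromosome 3, encodes a partner of Hop2 in meiotic recombination and was higher in all adenomas with deleted genes. Those adenomas also carry villin.Cre, which the ApcMin controls lack, so the Cre and the deletions cannot be told apart here. QKO adenomas had 7.84, 8.17 and 8.29, Bcl9/B9l DKO adenomas 7.91, 7.87 and 7.94, and Pygo1/2 DKO adenomas 7.98, 7.63, 8.49, 8.06 and 7.80, against 6.59 to 7.29 with a median of 6.99 in ApcMin adenomas. All 11 knockout arrays lay above all 9 controls. The differences were 1.01 ± 0.19, 0.97 ± 0.16 and 1.04 ± 0.16, all called, and all 3 share the ApcMin control arrays. Leaving out 1 array lost the call with 10 of the 14 arrays of the Pygo1/2 DKO comparison, with each Bcl9/B9l DKO array, and with QKO replicate 2 or 3 or ApcMin replicate 4 in the QKO comparison. In crypts Mnd1 was 7.24, 6.80 and 6.52 in Bcl9/B9l DKO and 6.25, 6.67 and 6.39 in Pygo1/2 DKO, against 6.54, 6.20 and 5.74 in villin.Cre crypts, with differences of 0.73 ± 0.27 and 0.28 ± 0.23, neither called.

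QKO adenomas were called in 4 of the 10 genes, Mnd1 higher and Mns1, Lrrc1 and Tmem25 lower, where 4.41% of 19189 probes were called, with a median of -1.08 over the 10 genes and 0.03 over all probes. QKO is the genotype that carries the alleles near both sets of genes. On its arrays Mns1 and Tmem25, of the 10 chosen genes those closest to Pygo1 and Bcl9l, were low in 3 of 3. Jaml was part way down, Dapk2 and Pclaf were low in 2 of 3, and Me1 and Ube2cbp were at or above the level of controls. The genes were picked for their differences, so nothing is read from this order. The X-linked Xist and the Y-linked Eif2s3y and Kdm5d showed that sexes were unevenly spread over the groups. Xist was detected in 2 of 3 QKO, 0 of 3 Bcl9/B9l DKO and 5 of 5 Pygo1/2 DKO adenomas, against 8 of 9 ApcMin adenomas, and in 0 of 12 crypt arrays. In batch 1 it was detected in 6 of 6 ApcMin adenomas. Eif2s3y and Kdm5d were detected in 0 of those 6 and in 3 of 3 Bcl9/B9l DKO adenomas. Sex and genotype thus cannot be told apart between Bcl9/B9l DKO adenomas and either Pygo1/2 DKO adenomas or the ApcMin adenomas of batch 1. In QKO adenomas 4 of 8 fibroblast and matrix genes were also called lower, with sums of 999 to 1680 against 2440 to 12600 in all 9 ApcMin adenomas, and the 4 plasma and B cell genes, 0 of them called, summed to 156 to 282 against 289 to 2810. QKO replicate 2, with high Dapk2 and Pclaf, had Xist detected, and so had QKO replicate 1, in which both genes were low. The part of sex and of these other cell types in the adenoma comparisons was not tested.

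The double knockouts were also set directly against each other. These contrasts are among those that chose the genes, and nothing is read from the counts. Bcl9/B9l DKO adenomas were called against Pygo1/2 DKO adenomas in 7 of the 10, Dapk2, Pclaf and Mns1 higher (3.64 ± 0.22, 3.05 ± 0.26 and 1.64 ± 0.23) and Jaml, Tmem25, Me1 and Ube2cbp lower, where 0.774% of 18737 probes were called. Jaml differed by -2.92 ± 0.20, and Tmem25, Me1 and Ube2cbp were at least 2.38-fold, 7.73-fold and 3.88-fold lower. Xist was detected in 0 of 3 Bcl9/B9l DKO and 5 of 5 Pygo1/2 DKO adenomas, so sex and genotype cannot be told apart in this adenoma contrast. Bcl9/B9l DKO crypts were called against Pygo1/2 DKO crypts in 3 of the 9 genes that could be tested, Jaml, Tmem25 and Me1, all lower, where 0.103% of 15578 probes were called. The Me1 call was lost without any 1 Bcl9/B9l DKO array or without Pygo1/2 DKO replicate 2. Dapk2 and Pclaf were higher on all Bcl9/B9l DKO crypt arrays, Dapk2 by 1.93 ± 0.27 and Pclaf at least 2.60-fold, without a call. Ube2cbp was detected in neither group of crypts. Mnd1, Nt5e and the brightest Lrrc1 probe overlapped between the double knockouts in both tissues, while the middle Lrrc1 probe was higher on all Bcl9/B9l DKO arrays, by 0.91 ± 0.24 in adenomas and 0.38 ± 0.19 in crypts, not called.

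The size of a difference between tissues was fitted as the knockout effect in adenomas less that in crypts. For Pygo1/2 DKO, 0 of the 10 genes were called, where 0.0755% of 19859 probes were called. The widest gaps of the brightest probes were -1.25 ± 0.25 for Dapk2, whose decrease was larger in adenomas, 1.16 ± 0.21 for Ube2cbp, which was below detection in crypts only, and -1.51 ± 0.44 for Nt5e, which was above villin.Cre arrays in crypts and overlapped its controls in adenomas. For Bcl9/B9l DKO, only Tmem25 was called, at 1.89 ± 0.30, where 0.488% of 19687 probes were called. Its knockout signal was below detection in both tissues, and its control level was higher in crypts, so that the fitted effects compare 2 control levels with a common floor.

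The neighbours of the targeted genes were also counted, with the share of all probes called beside them. Within 50 gene positions of Pygo1 and Pygo2, apart from the chosen genes, 0 of 127 measured genes were called in Pygo1/2 DKO adenomas and 0 of 103 in Pygo1/2 DKO crypts. Within 50 positions of Bcl9 and Bcl9l, 4 of 110 were called in Bcl9/B9l DKO adenomas (3.64%) and 0 of 89 in Bcl9/B9l DKO crypts. Around the pair that was not deleted, 3 of 125 (2.40%) were called in Bcl9/B9l DKO adenomas, 0 of 105 in Bcl9/B9l DKO crypts, 0 of 111 in Pygo1/2 DKO adenomas and 2 of 87 in Pygo1/2 DKO crypts. QKO adenomas had 6 of 125 genes called around Pygo1 and Pygo2 (4.80%) and 10 of 111 around Bcl9 and Bcl9l (9.01%). Of all probes, 0.181% were called in Pygo1/2 DKO adenomas, 2.27% in Bcl9/B9l DKO adenomas and 4.41% in QKO adenomas. In crypts the shares of all probes were 0.267% for Pygo1/2 DKO and 0.0381% for Bcl9/B9l DKO. The 2.40% and 4.80% thus lie near the shares of all probes in their comparisons. Most measured genes in these windows were not called, and a gene that was not called may still differ. The chosen genes were picked for their differences in these data and were left out of the counts. These counts therefore do not place the chosen genes among their neighbours. With both wt groups as crypt controls, more neighbours were called in crypts. The share of all probes called with those controls is not given here, so nothing is read from that rise.

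Among those neighbours, Cadm1, a cell adhesion molecule 43 positions from Bcl9l, was lower in Bcl9/B9l DKO adenomas by -2.12 ± 0.22 and in QKO adenomas by -2.42 ± 0.38. Cd3g and Cd3e, subunits of the T cell receptor complex that stand 12 and 14 positions from Bcl9l and are also among the T cell genes above, were lower by -2.14 ± 0.29 and -1.76 ± 0.30 in Bcl9/B9l DKO adenomas. They were not called in QKO adenomas, where they differed by -0.36 ± 0.32 and -0.14 ± 0.40, or in Bcl9/B9l DKO crypts, where they differed by 0.21 ± 0.41 and 0.44 ± 0.42. Cgnl1, at -8 from Pygo1, was lower in QKO adenomas by -2.36 ± 0.27 and, with Pygo1 not deleted, in Bcl9/B9l DKO adenomas by -1.14 ± 0.22, both called. It overlapped ApcMin adenomas in Pygo1/2 DKO adenomas (0.02 ± 0.23). Cadm1 and Cgnl1 were detected on no crypt array, so crypts give no comparison for them. In ApcMin adenomas of batch 1 they were at least 7.85-fold and 9.33-fold higher than in wt crypts, and both were called in the fit of all ApcMin arrays. Gnb5, at 16 from Pygo1, was detected in 0 of 3 QKO adenomas, at least 3.57-fold lower, and differed by -0.68 ± 0.19 in Bcl9/B9l DKO and -0.97 ± 0.17 in Pygo1/2 DKO adenomas, neither called. Aqp9, at -12 from Pygo1, and Nxpe4, 44 positions from Bcl9l, were detected in 0 of 3 QKO adenomas, at least 1.67-fold and 1.23-fold lower than the ApcMin arrays of that batch. Aqp9 was also detected in 0 of 5 Pygo1/2 DKO adenomas and in 0 of the 6 ApcMin adenomas of batch 1. Gcnt3, at -21 from Pygo1, was higher by 0.89 ± 0.13 in Bcl9/B9l DKO adenomas. Tent5c, 28 positions from Bcl9, was detected in 0 of 3 Pygo1/2 DKO crypts, at least 1.44-fold lower and called, and Fxyd6, 24 positions from Bcl9l, was higher by 1.48 ± 0.19 in Bcl9/B9l DKO crypts than in Pygo1/2 DKO crypts.

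Wars2, the mitochondrial tryptophan tRNA ligase 23 positions from Bcl9 on chromosome 3, was higher on all arrays of every knockout than on their controls. QKO adenomas had 7.55, 7.71 and 7.36, Bcl9/B9l DKO adenomas 6.75, 7.12 and 6.98, and Pygo1/2 DKO adenomas 6.00 to 7.08, against 5.38 to 5.97 in ApcMin adenomas. Crypts had 7.02, 6.18 and 6.51 in Bcl9/B9l DKO and 6.39, 6.20 and 6.38 in Pygo1/2 DKO, against no detected array of 6 wt and villin.Cre crypts. The differences were 1.69 ± 0.17, 1.31 ± 0.16 and 0.91 ± 0.19 in QKO, Bcl9/B9l DKO and Pygo1/2 DKO adenomas, the last not called. In crypts Wars2 was at least 1.83-fold higher in Bcl9/B9l DKO, not called, and at least 1.52-fold higher in Pygo1/2 DKO, called. The comparisons share control arrays within each tissue.

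**Figure D3:**
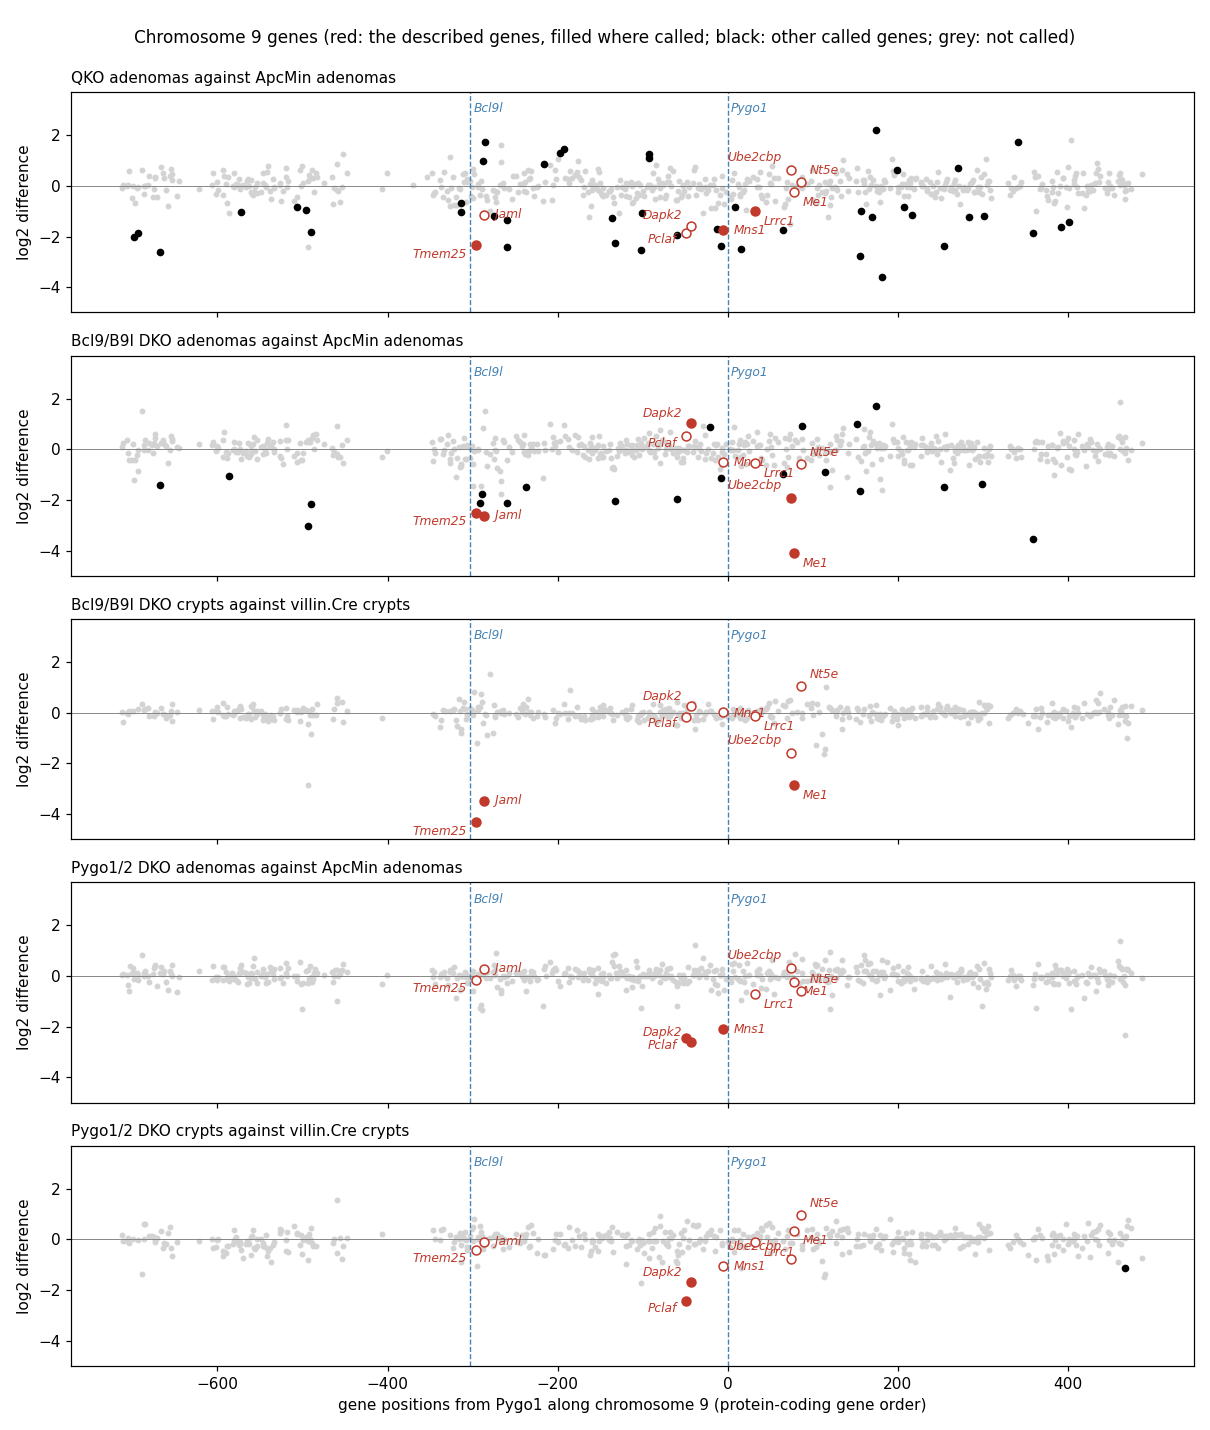
Log2 difference from controls (y axis) of every measured gene of chromosome 9, placed by gene order from Pygo1 (x axis, protein-coding genes), in 5 knockout comparisons with 1 probe per gene, the brightest in that comparison. Red points are the 9 chosen genes on this chromosome (filled where called), black points other called genes, grey points genes not called, and dashed lines mark Bcl9l and Pygo1. Points of probes not detected in 1 of the groups are the fitted values. In Bcl9/B9l DKO crypts the 3 called genes are Tmem25, Jaml and Me1.

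Counted by chromosome without the chosen genes, chromosome 9 held 0 called genes in Pygo1/2 DKO adenomas, 21 called genes in Bcl9/B9l DKO adenomas and 45 in QKO adenomas. Chromosome 3 without them held 2, 16 and 27 called genes in the same order. With the chosen genes, 620, 607 and 608 genes of chromosome 9 were measured, and the shares called there were 0.484%, 4.28% and 7.89% in that order. They were 0.564%, 3.23% and 5.33% on chromosome 3 and 0.0939%, 2.46% and 5.08% on all other chromosomes. The chosen genes were picked for their differences and lie on chromosomes 3 and 9, which raises the shares of these 2 chromosomes. Nothing is read from those shares.

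Groups that share their Pygo and Bcl9 alleles were also compared. These comparisons share the ApcMin or villin.Cre arrays with the contrasts that chose the genes, so they are not independent of the choice and are given as a description. Against wt crypts, villin.Cre crypts were called in 0 of the 10 genes by limma, where 0.0386% of 15528 probes were called, and the median over the 10 genes was -0.03. At an unadjusted p under 0.05 by limma, 1 of the 10 genes, Nt5e, and 4.59% of all probes passed. Nt5e came nearest, with 10.42, 10.20 and 10.64 in villin.Cre crypts, all below 10.72, 11.10 and 10.85 in wt crypts, differences of -0.50 ± 0.17 and -0.56 ± 0.18 on its 2 probes. The other 9 genes overlapped between the groups on their brightest probe.

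ApcMin adenomas were called against wt crypts in 5 of the 10 genes, where 38.3% of 19002 probes were called. Mns1, Pclaf, Ube2cbp and Mnd1 were higher and Tmem25 lower, and the median over the 10 genes was 0.58, beside -0.08 over all probes. Mns1 was 7.73 to 8.54 in ApcMin adenomas, against 5.79, 5.88 and 6.01 in wt crypts, a difference of 2.01 ± 0.14. Ube2cbp was higher by 0.87 ± 0.16, Pclaf by 0.97 ± 0.26 and Mnd1 by 0.65 ± 0.18. Tmem25 was 6.20 to 7.32 in ApcMin adenomas, against 8.65, 8.72 and 8.70 in wt crypts, with no overlap and a difference of -1.91 ± 0.21.

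Higher Pclaf stood beside higher proliferation genes. In batch 1 alone Pclaf differed by 0.99 ± 0.28 and was not called, and the calls of Pclaf and Mnd1 were lost with the deposited log2 values and without the detection filter. Of the 14 proliferation genes 13 were called higher and 0 lower in ApcMin adenomas, with a median of 0.95. The other 5 chosen genes were not called. Dapk2 differed by 0.50 ± 0.15, Me1 by 1.40 ± 0.44, Jaml by 0.48 ± 0.22, Nt5e by -0.68 ± 0.31 and Lrrc1 by -0.22 ± 0.23. All crypts, unlike 8 of the 9 ApcMin adenomas, lacked detected Xist, and crypts were dissociated while adenomas were excised, so that sex, dissociation and tissue cannot be told apart here. Markers of other cell types moved as well in this contrast, with 8 of 8 fibroblast (sums of 2440 to 12600 in ApcMin adenomas and 240 to 298 in wt crypts), 8 of 8 myeloid (1310 to 3210 and 289 to 297) and 4 of 4 plasma and B cell genes (289 to 2810 and 107 to 121) higher, and their part was not tested.

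**Figure D4:**
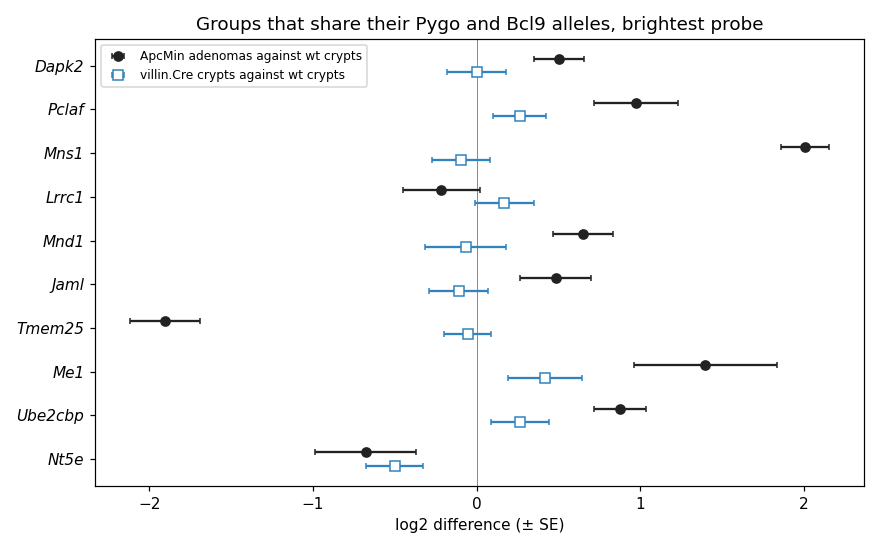
Log2 difference ± SE (x axis) of the brightest probe of each gene (rows) between groups that share their Pygo and Bcl9 alleles, ApcMin adenomas against wt crypts (filled circles, n = 9 and 3) and villin.Cre crypts against wt crypts (open squares, n = 3 each). Mns1 lies highest at 2.01 and Tmem25 lowest at -1.91 in the adenoma contrast, and the villin.Cre differences lie between -0.50 and 0.42.

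Patterns over the 32 arrays were compared as Pearson correlations of log2 signals after the mean of the controls of the same tissue and batch was subtracted, and are a description over arrays that share those controls. Dapk2 was most like Pclaf (0.925) and then Mns1 (0.802), all before Pygo1. Mns1 was most like Lrrc1 (0.869, through another of its probes than the brightest, which gave 0.472) and Pclaf (0.852). Jaml and Tmem25 were most like each other (0.926), each followed by Slc30a7, a zinc transporter on chromosome 3 (0.842 and 0.874). Me1 was most like Jaml (0.80) and Ube2cbp (0.759), and Ube2cbp most like Jaml (0.764). For the 3 remaining genes the likest genes lay on other chromosomes. They were Jchain and Ctsz (0.826) for Lrrc1, Apoc4 (0.828) and Csnk1d (0.809) for Mnd1, and Slc28a2 (0.774) and Ada (0.769), a nucleoside transporter and adenosine deaminase, for Nt5e. Dapk2 and Jaml, low with different alleles, correlated at -0.398.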

How the data were processed

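RNA was amplified, hybridized to MouseWG-6 v2.0 arrays and scanned by the authors, who exported bead intensity values without background correction or normalization from GenomeStudio 2011.1. Each of 45281 probes has a deposited detection p-value beside its intensity. The deposited log2 values of 20824 probes, variance-stabilized and quantile-normalized by the authors, served as an alternative. Whether they are adjusted for batch is not stated. The authors tested with limma 3.34.9.

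Here intensities were processed with limma 3.58.1 in R 4.3.3 (neqc, offset 16, with detection p-values for negative controls), separately for each comparison. Probes with a detection p under 0.01 on 1 or more arrays were kept. Where no array of the lower group detected a probe, the fold is a bound against the lowest detected signal. Such bounds compare means of arrays of the same batch and carry no sampling error. Figures used Python 3.11.15, pandas 2.3.3 and matplotlib 3.10.9. Of 20824 probes, 17617 carried a symbol from the platform annotation and 17357 a place in the RefSeq gene order of GRCm38.p6. All 10 genes and 16 probes matched.

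The genes, lists and comparisons were chosen with earlier results of these data known. Genes named are the 10 chosen, the targeted genes, up to 5 called neighbours per knockout comparison by smallest p, and the 2 likest genes of each. All comparisons describe, since those against wt crypts share arrays with the contrasts that chose the genes. On simulated data with 100 planted genes each, log2 changes of 1 and 2 were recovered at 66% and 97% for Pygo1/2 DKO adenomas, 39% and 88% for Bcl9/B9l DKO adenomas, 29% and 90% for QKO adenomas, 58% and 86% for Pygo1/2 DKO crypts, 31% and 91% for Bcl9/B9l DKO crypts, 61% and 89% for villin.Cre crypts and 57% and 94% for ApcMin adenomas against wt crypts.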

Additional observations from a re-analysis of the deposited data

Results flagged for a closer look

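Mns1 and Me1 in Pygo1/2 DKO adenomas each held 1 array far from the other 4. For Mns1, replicate 4 was high at 6.25 beside 5.58 to 5.77, a gap of 0.722 of the group's range. For Me1, replicate 1 was low at 7.52 beside 8.46 to 8.67, a gap of 0.816 of the range. Chance gives such a gap in about 1 of 20 groups, and 20 groups of values were examined. Tmem25 differed between tissues in the size of its Bcl9/B9l DKO effect by 1.891 (log2, adenomas less crypts), with a knockout signal below detection in both.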

How the results depend on the processing

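No difference of a called gene changed direction under any alternative run. Shares of all probes called are not given in this section, so its counts show only how the calls depend on the processing. Counts of the 10 genes called moved by more than 1.5 times as follows. Without a detection filter they were 2 for QKO adenomas, 1 for Pygo1/2 DKO crypts, 3 for ApcMin adenomas against wt crypts and 1 for Bcl9/B9l against Pygo1/2 DKO crypts. With the deposited log2 values they were 3 for ApcMin adenomas against wt crypts, 1 for Bcl9/B9l against Pygo1/2 DKO crypts and 1 for the Pygo1/2 DKO difference between tissues. With both wt groups as crypt controls they were 4 for Pygo1/2 DKO crypts and 2 for the Pygo1/2 DKO difference between tissues. With all 32 arrays normalized together it was 1 for Pygo1/2 DKO crypts. Neighbours called around the deleted genes moved from 4 to 8 in Bcl9/B9l DKO adenomas, from 0 to 2 in Pygo1/2 DKO crypts and from 1 to 0 in Bcl9/B9l against Pygo1/2 DKO crypts with the deposited values. With both wt groups they were 9 in Pygo1/2 DKO and 5 in Bcl9/B9l DKO crypts. Without background correction they were 1 in Pygo1/2 DKO adenomas and 1 in Bcl9/B9l DKO crypts. In QKO adenomas 16 became 10 within 25 positions. In Bcl9/B9l against Pygo1/2 DKO crypts, 1 became 0 without the filter and with all arrays normalized together. In ApcMin adenomas against wt crypts, Pclaf and Mnd1 lost their calls with the deposited values and without the filter. The cause was not tested. Fits of 1 batch alone moved differences by at most 0.053 in Pygo1/2 DKO adenomas, 0.178 in Bcl9/B9l DKO adenomas, 0.594 in QKO adenomas (Tmem25) and 0.054 in ApcMin adenomas against wt crypts.

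In no comparison did the deviations of same-numbered arrays correlate over 0.1 in every pair. In Pygo1/2 and Bcl9/B9l DKO crypts these correlations were 0.02 to 0.372 and 0.018 to 0.364. The medians for other numbers were -0.0986 and -0.0914 there. In villin.Cre against wt crypts they were -0.35 to 0.0383, beside a median of 0.154. Whether the replicate numbers pair the arrays is thus not settled. With the replicate block, the genes called were 2 in Pygo1/2 DKO adenomas, 0 in Bcl9/B9l DKO adenomas and 2 in ApcMin adenomas against wt crypts, and neighbours called 0 in Bcl9/B9l DKO adenomas, 42 in place of 92 in ApcMin adenomas against wt crypts, 1 in Bcl9/B9l against Pygo1/2 DKO adenomas and 0 in Bcl9/B9l against Pygo1/2 DKO crypts. The block also ended the calls of Pclaf, Mnd1 and Ube2cbp in ApcMin adenomas against wt crypts, and could not be fitted for QKO adenomas.

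Leaving out 1 array gave 3 to 4 genes called in Pygo1/2 DKO adenomas, 4 to 6 in Bcl9/B9l DKO adenomas, 2 to 5 in QKO adenomas, 1 to 2 in Pygo1/2 DKO crypts, 3 to 3 in Bcl9/B9l DKO crypts, 0 to 0 in villin.Cre crypts, 3 to 5 in ApcMin adenomas against wt crypts, 6 to 7 in Bcl9/B9l against Pygo1/2 DKO adenomas and 2 to 4 in the same crypts. Neighbours called were 0 to 1, 3 to 7, 7 to 17, 0 to 1, 0 to 0, 0 to 0, 71 to 90, 0 to 1 and 0 to 1 in that order. The lowest counts came without ApcMin replicate 4 for QKO adenomas (Lrrc1 and Mnd1 lost), without Bcl9/B9l DKO replicate 2 or 3 for Bcl9/B9l DKO adenomas (Dapk2 and Mnd1 lost), without Pygo1/2 DKO replicate 1 or 2 or villin.Cre replicate 1 or 2 for Pygo1/2 DKO crypts (Dapk2 lost), and without ApcMin replicate 5 or 9 or wt replicate 2 or 3 for ApcMin adenomas against wt crypts (Pclaf and Mnd1 lost). The number of arrays, and bounds set by the lowest detected signal, limit the precision.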
